A study of Mus musculus with 12 samples.

Results

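The double mutant C/X was compared with wildtype in the hypertrophic zone of the mouse tibial growth plate. C/X mice carry the p.Asn617Lys change knocked into Col10a1, the gene of collagen X, in both copies by the study's genotyping, and in addition lose exon 2 of Xbp1 in cells that express or have expressed Col2a1, through Cre recombinase under Col2a1 control. The comparison rested on 6 of the 12 arrays of the series, 3 titled C/X and 3 titled wildtype. The remaining arrays were 3 of ColXN617K, which has the collagen X change alone, and 3 of Xbp1CartΔEx2, which has the Xbp1 deletion alone. These entered the same fit, and they were used to see which changes of C/X were also found in a single mutant. Each array held RNA from 1 proximal tibial growth plate of 1 mouse, all mice were 2 weeks old and of a mixed background, and the scalpel-dissected zone can hold cells other than chondrocytes. The RNA went through 2 rounds of linear amplification before it was hybridised to Illumina whole genome arrays. Of the 45281 probes on an array, the 12023 with a detection score above 0.95 on 3 or more of the 12 arrays were tested, where the score is 1 minus the detection p. Of the tested probes, 9866 had a gene symbol, and these stood for 7642 genes.

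Hypertrophic chondrocytes are the last stage of cartilage in the growth plate, and they secrete collagen X in large amounts. Collagen X that misfolds is held in the endoplasmic reticulum (ER) and sets off the unfolded protein response, which is sensed by PERK, IRE1 and ATF6. PERK slows translation and raises ATF4 and CHOP (encoded by Ddit3), ATF6 raises chaperones, and IRE1 splices the Xbp1 message into the form that encodes an active transcription factor for folding, degradation and secretion genes.

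Values are normalized log2 intensities, which can be compared between arrays for 1 probe but not between probes. On wildtype arrays 17.3 to 17.7% of all probes were above background, as were 23.2, 24.4 and 17.2% on C/X replicates 1, 2 and 3, so replicate 3 of C/X stood apart. ColXN617K replicate 3 stood apart in the same way, with 17.1% against 26.1 and 28.4%. Correlations between arrays across tested probes were 0.957 to 0.970 within wildtype and 0.915 to 0.984 within C/X. Of the 20 measured genes of cartilage matrix and the 20 of hypertrophy and mineralization, 17 each were above background on every array of both genotypes, in the tissue labelled as hypertrophic zone. Xist (ILMN_1224091), the X inactivation transcript, was high on replicates 1 and 3 of wildtype (8.90 and 9.01) and of C/X (11.51 and 10.64) and low on replicate 2 of both (5.89 and 5.88). The same replicates were thus high in both genotypes, at higher levels in C/X. Xist was low on all 6 arrays of the single mutants (5.82 to 6.02). Eif2s3y (ILMN_1241001), a gene of the Y chromosome, had 8.55 and 9.06 on replicate 2 of wildtype and C/X. It had 6.65 to 7.01 on their replicates 1 and 3 and 7.92 to 10.67 on the single mutant arrays. The labels used here give no sex. By these transcripts sex may differ with genotype in comparisons that involve a single mutant, where their effects cannot be told apart. The part of this difference in which probes passed in C/X only was not tested. Where the text speaks of a probe that passed, its levels differed by a fold of 2 or more, with an adjusted p in limma no higher than 0.01. SE is the standard error of a log2 difference. A level found in whole tissue cannot tell fewer cells of a type from less RNA per cell.

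Both engineered genes were read first. Xbp1 (ILMN_2431237) had levels of 10.49, 11.03 and 10.67 in wildtype and 10.94, 11.18 and 10.19 in C/X, with a log2 fold change of 0.04 (SE 0.27, adjusted p = 0.922 in limma). The arrays of both genotypes overlapped, and since the position of this probe relative to exon 2 was not used here, the value is no check of the deletion. Col10a1 (ILMN_2675388) had levels of 11.75, 12.47 and 11.97 in wildtype and 9.27, 9.33 and 8.35 in C/X, a log2 fold change of -3.08 (SE 0.40, adjusted p = 0.000209 in limma). All C/X arrays lay below all wildtype arrays. The fall in ColXN617K was of similar size, at -3.17, and the direct difference between C/X and ColXN617K was 0.09 (SE 0.40, adjusted p = 0.923 in limma). The probe does not tell the mutant allele from the normal one.

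The stress hormone Fgf21 (ILMN_2710698) was among the largest rises, with levels of 7.25, 7.09 and 7.26 in wildtype and 12.97, 12.98 and 13.19 in C/X. None of the wildtype arrays was above background for this probe, and the fold difference is therefore given as at least 42.4-fold higher, with a measured log2 fold change of 5.85 (SE 0.19, adjusted p = 1.61e-09 in limma). Here and below, "at least" sets the mean of the bright group against the lowest signal that counted as above background on each dim array. The log2 values of such probes are measured differences whose dim side lies below background, which also holds without a bound beside them for Creb3l2, Hspa5, Bok, Cxcl1, Sema3f and the second probe of Gadd45a. Inhbe (ILMN_1229605), the beta E subunit of activin, had levels of 6.44, 6.24 and 6.39 in wildtype and 10.98, 11.04 and 10.86 in C/X, and was at least 9.96-fold higher (log2 fold change 4.60 (SE 0.21, adjusted p = 4.62e-08 in limma)). No wildtype array overlapped with a C/X array at either gene, and of the Xbp1CartΔEx2 arrays 1 was above background for Fgf21 and 0 for Inhbe. Adig (ILMN_2692644), which encodes adipogenin of fat cells, had 11.28, 11.001 and 11.46 in C/X against 5.98, 6.11 and 5.82, at least 12.2-fold higher (log2 fold change 5.28 (SE 0.24, adjusted p = 4.62e-08 in limma)). Avil (ILMN_2753149), which encodes the actin-binding protein advillin, had 11.47, 11.72 and 10.97 in C/X against 6.25, 6.09 and 6.33, at least 13.4-fold higher (log2 fold change 5.16 (SE 0.26, adjusted p = 1.08e-07 in limma)). Of these 4 genes, Avil passed also in C/X versus ColXN617K, with a log2 fold change of 1.33 (SE 0.26, adjusted p = 0.00637 in limma).

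The promoters of these genes are shown because each holds a match to TGATGNAA, the core of the element bound by ATF4 with C/EBP partners. Windows around the annotated start were taken from RefSeq (GRCm38.p6). Below, 280 bases of the windows with a match are shown, 30 of them after the start. Whole windows were searched on both strands for this core, for the ER stress elements ERSE and ERSE-II, and for TGACGTGG (the core of the UPRE, the element bound by XBP1 and ATF6). For a gene with several windows only the first was searched, while the shares over all windows count every window. Of 65 genes searched, the 24 largest changes, the stress genes changed in C/X only and the 16 largest changes of that kind, 55 had a window. Of these, 5 held a match (9.09%), all of them to TGATGNAA, while 3.97% of all 32851 windows held this core and 4.77% held any of the 4 elements. The ERSE, ERSE-II and UPRE were in 0.119, 0.0365 and 0.676% of all windows. A match is a string of letters and was not tested as a binding site. Capitals mark the match, which in all windows but that of Avil lies on the opposite strand, so that the letters shown are its reverse complement. Trib3, the CHOP-interacting pseudokinase, is described further below.
Fgf21, chr7:45615461-45615740 (- strand): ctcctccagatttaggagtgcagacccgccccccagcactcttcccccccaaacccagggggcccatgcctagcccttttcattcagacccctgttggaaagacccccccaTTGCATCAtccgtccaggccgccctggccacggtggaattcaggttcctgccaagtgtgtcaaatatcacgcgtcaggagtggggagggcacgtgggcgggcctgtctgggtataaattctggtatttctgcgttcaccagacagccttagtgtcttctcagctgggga
Inhbe, chr10:127351819-127352098 (- strand): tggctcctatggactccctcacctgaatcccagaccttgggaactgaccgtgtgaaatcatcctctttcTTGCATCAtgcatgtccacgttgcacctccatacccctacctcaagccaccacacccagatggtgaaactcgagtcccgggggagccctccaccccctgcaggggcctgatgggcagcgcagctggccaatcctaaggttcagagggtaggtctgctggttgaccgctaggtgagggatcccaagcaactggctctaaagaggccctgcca
Adig, chr2:158502362-158502641 (+ strand): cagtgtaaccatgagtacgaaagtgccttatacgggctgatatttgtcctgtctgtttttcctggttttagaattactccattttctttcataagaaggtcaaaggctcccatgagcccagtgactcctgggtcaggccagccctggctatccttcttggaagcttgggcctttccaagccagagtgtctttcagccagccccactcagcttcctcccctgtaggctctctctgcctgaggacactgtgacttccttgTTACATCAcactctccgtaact
Avil, chr10:127000459-127000738 (+ strand): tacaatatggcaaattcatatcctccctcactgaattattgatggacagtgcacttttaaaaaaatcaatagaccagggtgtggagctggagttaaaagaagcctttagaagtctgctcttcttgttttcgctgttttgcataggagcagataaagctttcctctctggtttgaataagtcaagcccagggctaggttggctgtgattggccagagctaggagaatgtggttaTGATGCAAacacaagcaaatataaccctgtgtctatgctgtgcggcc
Trib3, chr2:152344031-152344310 (- strand): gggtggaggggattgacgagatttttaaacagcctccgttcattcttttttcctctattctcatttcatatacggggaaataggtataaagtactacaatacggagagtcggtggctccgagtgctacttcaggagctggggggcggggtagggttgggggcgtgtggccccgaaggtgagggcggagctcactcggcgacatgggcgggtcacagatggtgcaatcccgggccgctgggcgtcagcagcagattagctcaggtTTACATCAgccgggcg
Counted from the start site, the first base of the match lies at -139 in Fgf21, -181 in Inhbe, 9 in Adig, -17 in Avil and 15 in Trib3.

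Across all tested probes 1410 passed in C/X versus wildtype, which is 11.7% (6.52% higher and 5.21% lower). At each of them the arrays of both groups did not overlap, which held for 43.6% of all tested probes. The count was 305 with scaling by array medians and 881 without C/X replicate 1. Of the probes that rose, 376 had no wildtype array above background, and 129 of those that fell had no C/X array above background. The 12 genes with the largest rise, 1 probe per gene, ran from Cdsn to Inhbe. Cdsn (ILMN_1235732), which encodes corneodesmosin of skin desmosomes, was at least 37.7-fold higher, and all 3 of its probes passed in C/X and in ColXN617K. Lcn2 (ILMN_2712075), the secreted iron scavenger lipocalin 2, had levels of 6.41, 6.38 and 6.55 in wildtype and 12.43, 12.26 and 12.12 in C/X, and was at least 24.7-fold higher (log2 fold change 5.83 (SE 0.18, adjusted p = 1.33e-09 in limma)). Its Xbp1CartΔEx2 levels were 6.43, 6.42 and 6.37, and in C/X it lay above ColXN617K by 0.97 (SE 0.18, adjusted p = 0.00384 in limma), just short of a fold of 2. Lamb3 (ILMN_2605512), the beta 3 chain of laminin-332 in epithelial basement membranes, had 6.84, 7.15 and 6.76 in wildtype, 8.14, 7.72 and 7.74 in Xbp1CartΔEx2, 10.75, 10.75 and 11.05 in ColXN617K and 12.53, 12.42 and 12.21 in C/X. The 4 genotypes did not overlap at this probe, and C/X was higher than each of the others. It was at least 26.9-fold higher in C/X than in wildtype (log2 fold change 5.47 (SE 0.20, adjusted p = 5.78e-09 in limma)), and higher than in ColXN617K by 1.54 (SE 0.20, adjusted p = 0.000589 in limma).

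The remaining large rises were in genes of different kinds. Apoa4 (ILMN_1250349), an apolipoprotein of gut and liver, had levels of 6.38, 6.61 and 6.33 in wildtype and 12.38, 12.04 and 13.22 in C/X, at least 29.9-fold higher (adjusted p = 2.18e-06, limma). Of the liver genes in the lists only Apoa4 passed, with log2 fold changes of -0.40 for Ttr and -0.26 for Ahsg. Among the 4 measured genes listed for keratinocytes and desmosomes, a list that does not hold Cdsn, only Lamb3 passed, and Krt14 had 0.77 with an adjusted p of 0.0419 in limma. Acox2 (ILMN_1252618), a peroxisomal oxidase of branched and bile acid side chains, had 11.21, 11.29 and 11.22 in C/X against 5.96, 6.26 and 5.86, at least 12.1-fold higher. G0s2 (ILMN_1257299), an inhibitor of fat breakdown, had 11.67, 11.30 and 12.56 against 6.32, 8.02 and 6.07, with a log2 fold change of 5.04 (SE 0.45, adjusted p = 1.25e-05 in limma). Its lowest C/X array was well above its highest wildtype array. Otog (ILMN_2724583), an inner ear matrix protein, had 11.29, 11.24 and 11.02 against 5.98, 6.16 and 6.14, at least 11.6-fold higher, and it also exceeded ColXN617K, by 1.62 (SE 0.24, adjusted p = 0.00124 in limma). The methyltransferase gene Nnmt had 3 probes, all passing in C/X and none above background in wildtype, and it was at least 15.9-fold higher at ILMN_2885277 and at least 13.7-fold higher at ILMN_2544305. Xbp1CartΔEx2 was between wildtype and C/X at the former (7.89, 9.50 and 8.64 against 6.64, 7.005 and 6.99 in wildtype and 11.85, 11.73 and 11.32 in C/X).

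**Figure D1:**
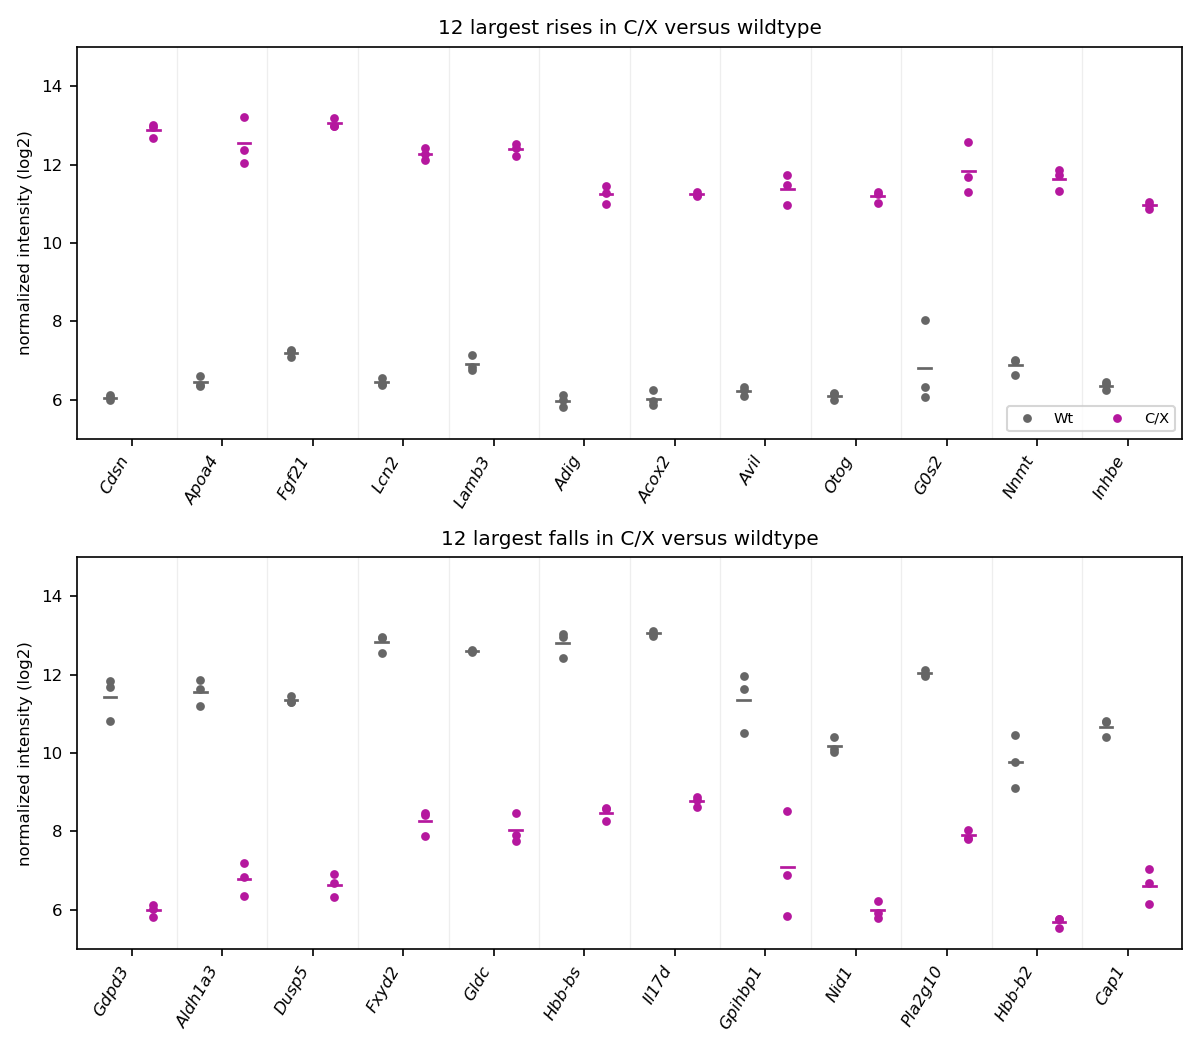
Normalized log2 intensity (y axis) of the 12 genes with the largest rise and the 12 with the largest fall in C/X versus wildtype (x axis). Points are the 3 arrays of each genotype and short lines their means. In every gene shown the points of the 2 genotypes do not overlap.

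Large falls were seen in signalling, metabolic and blood genes. Gdpd3 (ILMN_2893879), a phosphodiesterase of lipids, had levels of 11.68, 11.83 and 10.82 in wildtype and 6.01, 6.13 and 5.83 in C/X. It was at least 17.8-fold lower and not above background on any C/X array (adjusted p = 0.000754, limma). Its ColXN617K arrays were spread widely, at 8.83, 10.88 and 5.89, and Xbp1CartΔEx2 was low too, at 7.09, 7.09 and 7.18. Neither single mutant passed at this probe, with adjusted p of 0.0233 and 0.0124 in limma. Dusp5 (ILMN_2531737), a nuclear phosphatase that switches off ERK, had 11.47, 11.31 and 11.30 in wildtype and 6.33, 6.68 and 6.92 in C/X, at least 16.8-fold lower (log2 fold change -4.71 (SE 0.27, adjusted p = 3.96e-07 in limma)). Aldh1a3 (ILMN_2761436), which makes retinoic acid, had 11.62, 11.87 and 11.20 in wildtype and 6.83, 7.20 and 6.35 in C/X, a log2 fold change of -4.77 (SE 0.44, adjusted p = 1.51e-05 in limma). In ColXN617K it fell by 2.96, and the further difference between C/X and ColXN617K did not pass (-1.81 (SE 0.44, adjusted p = 0.0164 in limma)), but did with the title number as a block (adjusted p = 0.00793, limma). The secreted cytokine gene Il17d fell evenly, with 8.89, 8.62 and 8.80 in C/X against 13.13, 13.04 and 12.999 (log2 fold change -4.28 (SE 0.20, adjusted p = 4.62e-08 in limma)). The secreted phospholipase gene Pla2g10 fell by 4.14, and the basement membrane gene Nid1 was at least 7.38-fold lower.

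A pair of genes was lower in C/X than in every other genotype. Fxyd2 (ILMN_1251018), the gamma subunit of the sodium pump, had 12.94, 12.96 and 12.57 in wildtype, 10.31, 9.84 and 10.34 in Xbp1CartΔEx2, 10.13, 9.88 and 11.24 in ColXN617K and 8.41, 7.89 and 8.46 in C/X. It passed in both single mutants, at -2.66 and -2.41, and the log2 fold change in C/X was -4.57 (SE 0.32, adjusted p = 2.35e-06 in limma). The sum of the single changes was close to that of the double mutant, with an interaction of 0.50 (SE 0.46, adjusted p = 0.527 in limma). Gldc (ILMN_2873750), the glycine decarboxylase of mitochondria, had 12.62, 12.59 and 12.60 in wildtype, 12.38, 12.08 and 12.54 in Xbp1CartΔEx2, 10.06, 9.83 and 10.09 in ColXN617K and 8.48, 7.90 and 7.76 in C/X. Here loss of XBP1 alone gave -0.27 and the collagen X change alone -2.61, while C/X had -4.55 (SE 0.22, adjusted p = 5.29e-08 in limma). The interaction passed, at -1.67 (SE 0.31, adjusted p = 0.00935 in limma), and another Gldc probe had -2.05 in C/X. Cap1 (ILMN_2648661), an actin regulator, ran differently, with 10.80, 10.82 and 10.41 in wildtype, 10.68, 10.80 and 9.54 in ColXN617K, 7.95, 7.57 and 8.08 in Xbp1CartΔEx2 and 6.68, 7.04 and 6.14 in C/X. It was at least 10.4-fold lower in C/X (adjusted p = 7.18e-06, limma), and the C/X arrays lay below the ColXN617K arrays by -3.72 (SE 0.33, adjusted p = 6.74e-05 in limma).

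Blood and vessel genes made up part of the falls, and their levels are given because they move with the genotype. These falls were not particular to C/X. Versus wildtype, the median log2 fold change of the endothelial genes was -2.63 in ColXN617K and 0.79 in Xbp1CartΔEx2. That of the erythroid genes was -2.85 and -2.19. Of 15 measured endothelial genes 13 fell and 1 rose (Vwf, at least 1.66-fold), with a median log2 fold change of -2.45, against -0.04 over all genes. By the brightest probe of each gene, 6.29% of all genes rose and 5.68% fell. The summed endothelial signal, on a log2 scale, was 13.51 to 14.72 in wildtype and 11.06 to 12.55 in C/X. Wildtype replicate 2 was the lowest of its group and C/X replicate 3 the highest of its own. Cldn5 (ILMN_1241293), a tight junction protein of endothelium, shows this, with 12.15, 10.49 and 12.02 in wildtype and 6.13, 7.03 and 9.60 in C/X (log2 fold change -3.97 (SE 0.73, adjusted p = 0.00205 in limma)). The endothelial markers Pecam1, Cdh5 and Ramp2 were not above background on any C/X array, and Pecam1 was not above it on any wildtype array either. Of 4 erythroid genes 3 fell (median -3.44), and their summed signal was 13.97 to 14.70 in wildtype and 10.48 to 11.46 in C/X. Hbb-b2, Alas2 and Slc4a1 were not above background on any C/X array. The beta globin gene Hbb-bs (ILMN_2544056) had 12.97, 12.43 and 13.04 in wildtype and 8.26, 8.56 and 8.59 in C/X, but globin genes are near copies and their probes may share signal. Of 10 genes of osteoclasts and macrophages Acp5 and Tyrobp fell, at least 2.9-fold and at least 4.51-fold. The part of these cells in other falls was not tested.

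Stress genes were grouped by the branch of the response they belong to, each gene standing for its brightest probe. Over all lists of stress genes 321 genes were measured, and 75 passed (23.4%), 59 higher and 16 lower, while over all genes 6.29% rose and 5.68% fell. Of the 75, 53 passed in the same direction in ColXN617K, which shares the wildtype arrays. The 6 measured sensors and membrane-bound transducers (Ern1, the gene of IRE1, Atf6b, Creb3, Creb3l2, Mbtps1 and Xbp1) all missed the criteria in C/X, with log2 fold changes of -0.06 for Atf6b to 0.95 for Creb3l2. Of the same genes Creb3l2 rose and Mbtps1 fell in ColXN617K, at 1.31 and -1.33.

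Targets of PERK, ATF4 and CHOP were the group with the most calls, while over all genes 6.29% rose and 5.68% fell. Of 25 measured members 19 rose and 0 fell, with a median log2 fold change of 1.71 in C/X, 1.75 in ColXN617K and -0.12 in Xbp1CartΔEx2. Part of the membership comes from targets that the study named with these arrays, so the count describes the list and is no independent evidence of its direction. Ddit3 (ILMN_2652909), the gene of CHOP, had 11.02, 10.96 and 10.42 in wildtype, 10.15, 9.28 and 9.45 in Xbp1CartΔEx2, 13.26, 12.85 and 13.43 in ColXN617K and 13.38, 13.28 and 13.44 in C/X. The C/X and ColXN617K arrays overlapped and both lay above wildtype, and the C/X log2 fold change was 2.57 (SE 0.26, adjusted p = 3.44e-05 in limma). Cebpb (ILMN_2756435), a transcription factor that pairs with CHOP, had 10.05, 9.78 and 9.26 in C/X against 8.07, 8.21 and 7.87 (log2 fold change 1.65 (SE 0.30, adjusted p = 0.00196 in limma)). Chac1, a glutathione-degrading enzyme, rose by 1.84, and Ppp1r15a, the phosphatase subunit that restores translation, by 1.71. The stress cofactor gene Nupr1 rose by 1.21 (adjusted p = 0.00943, limma). Angptl6 (ILMN_2643534), a secreted angiopoietin-like factor, was at background in wildtype (5.82, 5.68 and 5.71) and at 10.26, 10.19 and 9.36 in C/X, at least 4.9-fold higher. The 6 members that missed the criteria were Atf4 (0.56), Atf5 (0.58), Atf3 (0.23), Cebpg (0.74), Eif4ebp1 (0.82) and Ddit4 (-0.30). Over the alternative settings 9 to 20 members of this list were higher.

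Genes that supply amino acids and load tRNAs, many of them ATF4 targets, followed. Over all genes 6.29% rose and 5.68% fell. Of 13 genes of amino acid synthesis, folate and transport 8 rose (median 1.62), among them Slc7a3, a carrier of basic amino acids, with 11.28, 11.37 and 11.16 in C/X against 8.54, 9.56 and 7.83 (log2 fold change 2.62 (SE 0.37, adjusted p = 0.000372 in limma)). The asparagine synthetase gene Asns rose by 1.62 and the cystine carrier gene Slc7a11 was at least 2.83-fold higher. Psat1, an enzyme of serine synthesis, had 8.66, 9.46 and 9.06 in Xbp1CartΔEx2 and 9.99, 10.29 and 9.40 in C/X against 7.66, 7.05 and 8.42 in wildtype, a C/X log2 fold change of 2.18 (SE 0.35, adjusted p = 0.000783 in limma). Of 15 cytosolic aminoacyl-tRNA synthetases Iars, Wars, Nars and Sars rose, by 1.20 to 1.54. The median of the list was 0.62, against -0.04 over all genes. The study named Iars, Wars, Nars, Sars and Slc7a11 as raised on these same arrays, so their calls here are no independent evidence. All 15 had a value above 0, from 0.29 for Aars to 1.54 for Iars, and the 11 that did not pass included Gars, with 0.51 and an adjusted p of 0.0449 in limma.

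ER chaperones and degradation genes gave fewer calls. Of 24 chaperones and folding enzymes 5 rose and 1 fell, while over all genes 6.29% rose and 5.68% fell. The median of the list was 0.31 in C/X and 0.49 in ColXN617K. Pdia4 (ILMN_1249670), a disulfide isomerase, had 7.40, 7.69 and 8.01 in wildtype, 10.79, 10.70 and 10.63 in ColXN617K and 10.49, 10.52 and 9.33 in C/X (log2 fold change 2.42 (SE 0.36, adjusted p = 0.000466 in limma)). Creld2 (ILMN_2757368), an ER folding factor, had 10.07, 10.40 and 10.06, 12.63, 12.59 and 12.65 and 12.42, 12.32 and 11.60 in the same order (C/X log2 fold change 1.94 (SE 0.27, adjusted p = 0.000282 in limma)). At Pdia4 and Creld2 every C/X array lay below every ColXN617K array, but the direct differences did not pass (-0.59 (SE 0.36, adjusted p = 0.303 in limma) and -0.51 (SE 0.27, adjusted p = 0.231 in limma)). Hsp90b1, the ER form of HSP90, rose by 1.85 (SE 0.24, adjusted p = 0.000165 in limma). Hspa5 (ILMN_1255561), the gene of the main ER chaperone BiP, had 6.76, 7.10 and 6.65 in wildtype and 9.05, 9.48 and 7.67 in C/X, and with 1.89 (SE 0.49, adjusted p = 0.0137 in limma) it missed the criteria by its adjusted p. C/X replicate 3 was the lowest of its group and was below background for this probe. Dnajb9, a BiP cofactor known as an XBP1 target, had 11.27, 11.56 and 10.77 in ColXN617K and 9.51, 9.53 and 8.85 in C/X against 9.22, 9.88 and 9.12 in wildtype. It passed in ColXN617K, at 1.79, and had -0.11 in C/X, with a direct difference of -1.91 (SE 0.28, adjusted p = 0.00131 in limma).

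Of 16 genes of ER-associated degradation Erlin1 (1.71) and Derl3 (at least 2.13-fold) rose and 0 fell, while over all genes 6.29% rose and 5.68% fell. Erlin1, a membrane scaffold of that pathway, had 10.30, 10.36 and 10.69 in C/X against 8.59, 8.87 and 8.78 (adjusted p = 8.7e-05, limma), and Herpud1 had 0.85 and missed the criteria (adjusted p = 0.0144, limma). Among 37 genes that move proteins into the ER and out in vesicles 4 rose, namely Mia3, Sec31a, Serp1 and Sec22b. Serp1, which protects new membrane proteins, stood at 12.86, 12.94 and 12.82 in ColXN617K, 11.82, 12.20 and 12.33 in C/X and 10.71, 11.14 and 11.18 in wildtype, so that C/X lay between and did not overlap with either. Its C/X log2 fold change was 1.11 (SE 0.21, adjusted p = 0.00219 in limma), and the difference from ColXN617K was -0.75 (SE 0.21, adjusted p = 0.029 in limma). Among 6 candidate targets of decay by IRE1, Scara3 fell by 2.35, while Sparc, a matrix glycoprotein, had probes that disagreed. In C/X versus wildtype they had -3.97, -0.14 and 0.06, and in ColXN617K versus wildtype -1.50, -3.63 and -0.67.

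Among the other stress lists, 3 of 17 genes of the NRF2 and glutathione defence rose, while over all genes 6.29% rose and 5.68% fell. Hmox1 (ILMN_2788073), heme oxygenase 1, had 6.36, 6.95 and 6.23 in wildtype and 9.03, 9.14 and 7.99 in C/X, at least 2.11-fold higher (adjusted p = 0.00726, limma). Of 22 cytosolic and mitochondrial heat shock proteins 4 rose, and of 19 genes of glycolysis and hypoxia Ndrg1 (2.21) and Pkm rose. Vegfa, the vessel growth factor, had 10.40, 10.95 and 10.50 in wildtype and 9.32, 9.70 and 8.65 in C/X. At this probe (ILMN_2484527) it missed the criteria with -1.40 (SE 0.34, adjusted p = 0.0101 in limma), and a second Vegfa probe passed in C/X, at -1.42 (adjusted p = 0.00324, limma), and in ColXN617K, at -1.29. Of 18 genes of the BCL2 family and caspases 0 passed, and the widest change was -1.37 for Bok with an adjusted p of 0.0551 in limma. Of 14 genes of the acute phase and of NF-kB signalling, Lcn2 and Cp rose and Serpina3n fell. Serpina3n, a protease inhibitor, had 10.42, 10.52 and 9.71 in wildtype, 6.36, 6.52 and 6.54 in Xbp1CartΔEx2, 10.36, 9.47 and 7.92 in ColXN617K and 7.99, 7.54 and 6.997 in C/X. It passed in Xbp1CartΔEx2 (-3.74) and in C/X (-2.71). The chemokine gene Cxcl1, which passed in ColXN617K at 4.69, had 6.83, 6.72 and 7.33 in C/X against 6.29, 6.16 and 6.21 in wildtype and missed the criteria (0.74, adjusted p = 0.3, limma).

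Immediate early genes and feedback regulators of MAPK signalling went the other way. Of 24 measured members 8 fell and 1 rose, while over all genes 5.68% fell and 6.29% rose. The median of the list was -0.59 in C/X, -0.46 in ColXN617K and 0.20 in Xbp1CartΔEx2. Egr1 (ILMN_2662926), a growth factor response gene, had 11.28, 11.004 and 11.65 in wildtype, 12.39, 11.85 and 12.12 in Xbp1CartΔEx2, 10.25, 10.23 and 9.13 in ColXN617K and 8.80, 8.85 and 9.62 in C/X (C/X log2 fold change -2.22 (SE 0.33, adjusted p = 0.000527 in limma)). Dusp6, a cytoplasmic ERK phosphatase, had 8.26, 8.53 and 9.94 in C/X against 12.03, 11.33 and 12.09 (log2 fold change -2.91 (SE 0.39, adjusted p = 0.000233 in limma)). Junb, an AP-1 subunit, had -0.24 in C/X and did not pass there, while it passed in ColXN617K with -2.75.

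**Figure D2:**
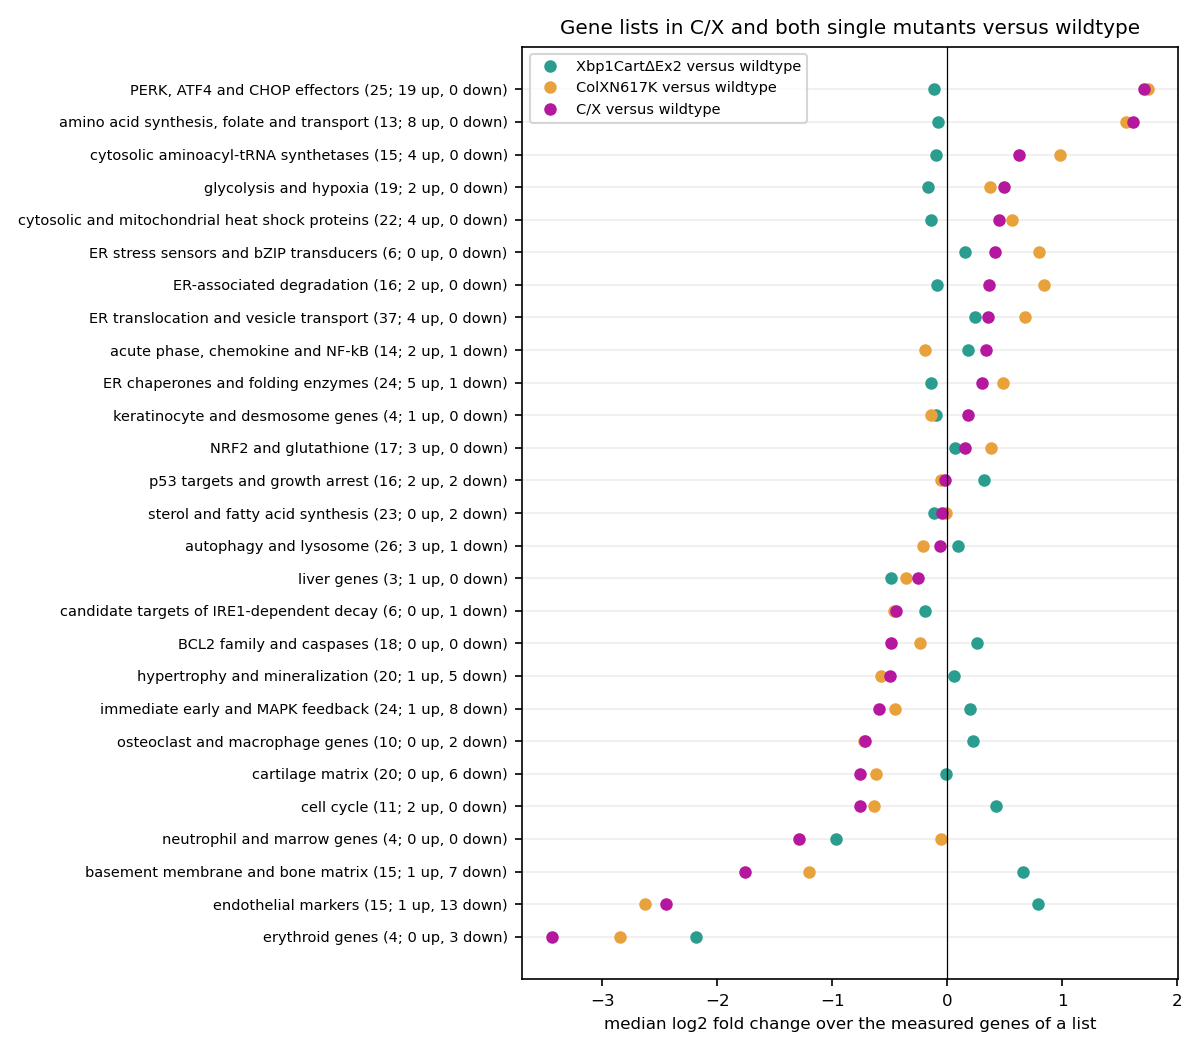
Median log2 fold change over the measured genes of each list (x axis) in C/X, ColXN617K and Xbp1CartΔEx2 versus wildtype, with the number of measured genes and of genes that passed in C/X beside each list (y axis). The PERK, ATF4 and CHOP list has the highest C/X median, 1.71, and the erythroid and endothelial lists the lowest, -3.44 and -2.45.

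Which changes were found in C/X and in neither single mutant was asked next. Of the 1410 probes 588 (4.89% of those tested) passed in C/X versus wildtype and in neither single mutant versus wildtype, 375 higher (3.12%) and 213 lower (1.77%). A further 731 passed also in ColXN617K only, 48 also in Xbp1CartΔEx2 only and 43 in all mutants. Over all tested probes 14.5% passed in ColXN617K and 1.76% in Xbp1CartΔEx2, each versus wildtype. The 588 probes include 475 with a symbol, for 446 genes. A probe that misses the criteria in a single mutant is not thereby unchanged there. The count of 588 became 107 with scaling by array medians and 321 without C/X replicate 1. The median log2 fold change of the 375 was 1.57 in C/X, 0.63 in ColXN617K and 0.32 in Xbp1CartΔEx2, and that of the 213 was -1.37, -0.70 and -0.30. In ColXN617K 103 of the 588 had a fold of at least 2, 35 had an adjusted p of 0.01 or less, and 59 had the opposite sign. Of the 588, 310 had an adjusted p over 0.05 in both single mutants. Probes near the limit show how it works. Sema3f, a guidance cue, was counted as C/X only with -2.21 in C/X and -2.06 in ColXN617K (adjusted p = 0.0101, limma), while Bmp6, a bone morphogenetic protein, was counted as shared with -1.37 and -1.31 (adjusted p = 0.00909, limma).

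The direct differences between C/X and the single mutants were also fitted. They use the same C/X and ColXN617K arrays that chose the 588 probes, so within these they are a description. With the title number as a block 705 probes passed in C/X versus ColXN617K, against 633 without it, and 590 were shared. No label states that same-numbered arrays are pairs. Their deviations from group means correlated, but those of C/X 1 did so more with ColXN617K 2 (r of 0.43) than with ColXN617K 1 (0.37). Against ColXN617K 138 of the 588 passed in the same direction, against Xbp1CartΔEx2 279 and against both 82. The interaction, which asks whether C/X differs from the sum of both single changes on the log2 scale, passed at 19. Its calls were the least stable, with 1 over all probes under scaling by array medians and 796 without ColXN617K replicate 3. Over all tested probes 5.26% passed in C/X versus ColXN617K, 13.7% in C/X versus Xbp1CartΔEx2 and 1.71% in the interaction.

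**Figure D3:**
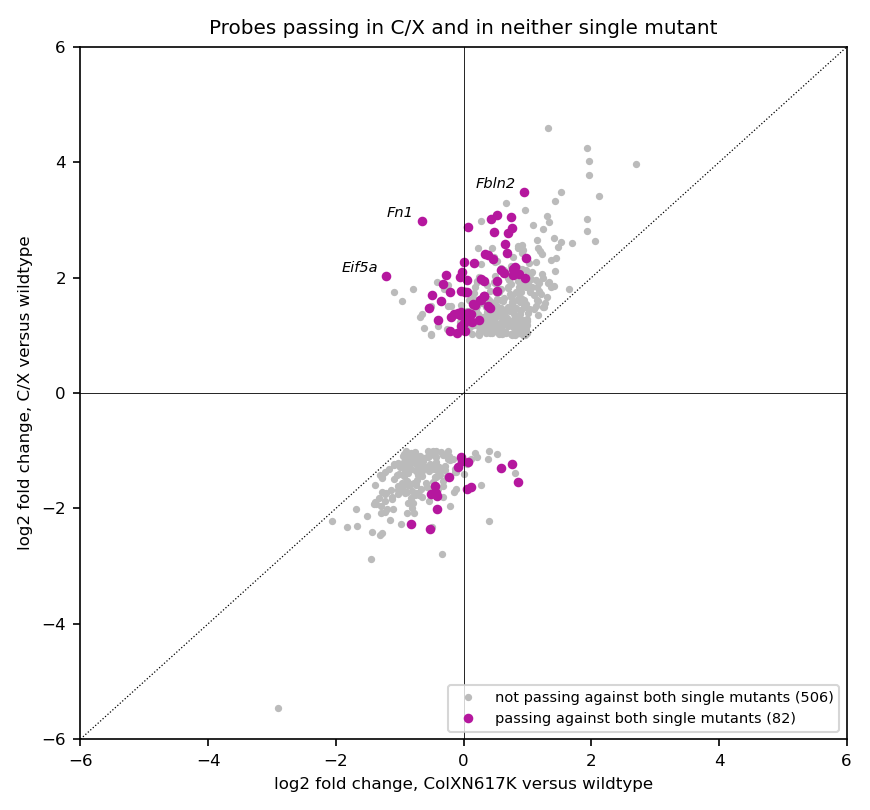
Log2 fold change in C/X (y axis) against that in ColXN617K (x axis), both versus the same wildtype arrays, for the 588 probes that passed in C/X and in neither single mutant. The dotted line marks equal change. Larger points are the 82 probes that also differed from both single mutants, among them Fn1 and Eif5a on the left of 0. The Eif5a probe was not above background on the ColXN617K arrays.

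Among stress genes, 28 had a probe that passed in C/X and in neither single mutant (8.72% of 321, against 5.84% of all genes), 20 higher and 8 lower. By the brightest probe alone 21 were C/X only, against 4.55% of all genes. For 8 of the 28 another probe of the gene passed in a single mutant (Aldh1l2, Hspa2, Hspa9, Npc1, Qars, Slc38a2, Srxn1 and Trib3), which leaves 20 genes, 14 higher and 6 lower. The higher ones were Mia3, Gadd45a, Sesn2, Wipi2, Jund, Pkm, Gpx3, Cryab, Eprs, Sqstm1, Lonp1, Stc2, Fkbp2 and Cp, and the lower ones Fos, Hsd17b7, Zfp36, Zfp36l1, Fkbp11 and Errfi1. For the 20 higher probes the median was 1.59 on the log2 scale in C/X, 0.72 in ColXN617K and 0.16 in Xbp1CartΔEx2, and for the 8 lower probes it was -1.46, -0.75 and -0.12. In ColXN617K 17 of the 28 had an adjusted p over 0.05, and 4 had a fold of at least 2. Of the 28, 7 also passed against both single mutants (Gadd45a, Hspa2, Sesn2, Wipi2, Trib3, Pkm and Fkbp11). Of the 28 probes, 4 remained C/X only with scaling by array medians and 11 with a block by the description label. When 1 array was left out in turn, 13 remained in all 12 fits, among them Mia3, Gadd45a, Sesn2, Wipi2, Pkm and Sqstm1 but not Fkbp11, Lonp1 or Cryab.

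Gadd45a (ILMN_2742152), a growth arrest gene induced by DNA damage, had levels of 6.30, 7.98 and 6.64 in wildtype, 6.93, 7.20 and 7.74 in Xbp1CartΔEx2, 8.07, 7.97 and 6.14 in ColXN617K and 9.67, 10.24 and 10.07 in C/X. All C/X arrays lay above the arrays of the other genotypes, which overlapped one another. The log2 fold change was 3.02 (SE 0.52, adjusted p = 0.00125 in limma) against wildtype and 2.60 (SE 0.52, adjusted p = 0.00637 in limma) against ColXN617K, and a second probe had 2.26 against wildtype. Mia3 (ILMN_2652104), which loads bulky cargo such as collagen at ER exit sites, had 6.49, 8.16 and 7.67, 7.80, 8.37 and 6.88, 8.46, 8.09 and 9.70 and 10.26, 10.35 and 10.90 in the same order. Its log2 fold change was 3.06 (SE 0.50, adjusted p = 0.000983 in limma), with 1.75 (SE 0.50, adjusted p = 0.0356 in limma) against ColXN617K. Sesn2 (ILMN_2948945), a stress-induced brake on mTORC1, had 7.10, 7.60 and 7.07, 7.53, 7.12 and 7.83, 8.35, 7.78 and 7.93 and 9.04, 9.39 and 9.81, and was at least 3.4-fold higher in C/X than in wildtype (adjusted p = 0.00015, limma). It passed also against ColXN617K, at 1.39 (SE 0.27, adjusted p = 0.00586 in limma), while its second probe had 0.98 and did not pass. Pkm (ILMN_2756041), pyruvate kinase, had 10.95, 11.18 and 11.90, 11.35, 11.56 and 11.10, 11.80, 11.31 and 11.89 and 13.23, 13.18 and 12.67, with 1.68 (SE 0.28, adjusted p = 0.000983 in limma) against wildtype. Its difference from ColXN617K passed (1.36 (SE 0.28, adjusted p = 0.00729 in limma)) but not with the title number as a block (adjusted p = 0.0113, limma).

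Autophagy genes were represented by Wipi2 and Sqstm1. Wipi2, which acts in autophagosome formation, had both of its probes in this group. At ILMN_2682516 the levels were 9.53, 9.23 and 9.34 in wildtype, 9.85, 8.90 and 9.79 in Xbp1CartΔEx2, 9.69, 9.34 and 8.93 in ColXN617K and 11.39, 11.26 and 10.76 in C/X (log2 fold change 1.77 (SE 0.29, adjusted p = 0.000945 in limma)). At the other probe the log2 fold change was 1.40 (SE 0.22, adjusted p = 0.000853 in limma), and in ColXN617K both stood near 0, at -0.05 and -0.09. Sqstm1 (ILMN_2710705), the cargo receptor p62, had 10.03, 10.38 and 10.27, 10.26, 9.86 and 9.74, 10.48, 10.40 and 10.84 and 11.52, 11.56 and 11.61 in the same order, with 1.34 (SE 0.20, adjusted p = 0.000609 in limma). Over the whole list of 26 autophagy and lysosome genes 3 rose and 1 fell, with a median of -0.07, while over all genes 6.29% rose and 5.68% fell. Map1lc3b, a coat protein of autophagosomes, had -1.56 and an adjusted p of 0.0935 in limma.

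In the list of cytosolic and mitochondrial heat shock proteins, Lonp1, Hspa9, Cryab and Hspa2 had a C/X-only probe. By the brightest probe 4 of the 22 measured genes of this list rose in C/X, while over all genes 6.29% rose. With arrays left out in turn, the C/X-only call of Hspa2 held in 12 of 12 fits. That of Hspa9 held in 11, of Lonp1 in 9 and of Cryab in 3. Lonp1 (ILMN_2719163), a protease of the mitochondrial matrix, had 8.03, 7.80 and 7.75 in wildtype, 7.54, 7.44 and 7.65 in Xbp1CartΔEx2, 8.03, 7.63 and 8.80 in ColXN617K and 9.27, 9.08 and 9.19 in C/X (log2 fold change 1.32 (SE 0.26, adjusted p = 0.00289 in limma)). Hspa9, the mitochondrial HSP70, rose at a C/X-only probe by 1.11 and in ColXN617K by 0.98 there, short of a fold of 2, while its other probe passed in both. The small heat shock gene Cryab had 7.44, 7.54 and 6.66 in C/X and 7.62, 7.26 and 6.09 in ColXN617K against 5.61, 5.87 and 5.69 in wildtype, and C/X alone met the limit (1.49 (SE 0.36, adjusted p = 0.00954 in limma), with no wildtype array above background). For Hspa2 the C/X-only probe ILMN_3140383 had 9.36, 9.27 and 9.07 in C/X and 7.39, 7.82 and 6.67 in ColXN617K against 6.51, 6.86 and 6.58. The brighter probe of Hspa2 rose by 2.07 in C/X and 2.35 in ColXN617K. Fkbp2 and Fkbp11, ER enzymes that turn proline bonds, went in opposite directions. Fkbp11 (ILMN_1224635) had 12.04, 11.72 and 11.99 in wildtype, 11.42, 12.27 and 11.76 in Xbp1CartΔEx2, 12.53, 12.72 and 12.26 in ColXN617K and 10.87, 10.53 and 10.47 in C/X. It was lower in C/X than in each other genotype, by -1.29 (SE 0.24, adjusted p = 0.0021 in limma) against wildtype and -1.88 (SE 0.24, adjusted p = 0.000522 in limma) against ColXN617K, and its interaction of -1.78 (SE 0.34, adjusted p = 0.0103 in limma) lay at the limit. Fkbp2 had 9.73, 10.03 and 9.68 in C/X against 8.99, 8.09 and 8.67, a log2 fold change of 1.23 (SE 0.29, adjusted p = 0.00845 in limma).

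Trib3 shows how probes of 1 gene can part. At ILMN_1252762 the levels were 6.79, 7.56 and 6.72 in wildtype, 6.46, 6.65 and 6.48 in Xbp1CartΔEx2, 7.18, 7.03 and 7.02 in ColXN617K and 8.82, 8.59 and 8.92 in C/X, at least 2.2-fold higher than wildtype (adjusted p = 0.0002, limma). The interaction passed, at 2.19 (SE 0.32, adjusted p = 0.00331 in limma), the 1 such case among the 28 stress probes. At its other probes Trib3 rose in C/X by 3.38 and 2.01 and in ColXN617K by 2.33 and 1.75. The files do not place these probes on transcripts. Npc1, which exports cholesterol from lysosomes, fell by 1.09 at its C/X-only probe and rose by 1.91 at another.

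The 6 lower genes of this kind included the AP-1 subunit Fos (ILMN_2750515), with 10.42, 10.72 and 10.40 in wildtype, 10.87, 10.06 and 10.18 in Xbp1CartΔEx2, 9.81, 10.18 and 9.26 in ColXN617K and 8.47, 8.76 and 9.002 in C/X (log2 fold change -1.77 (SE 0.28, adjusted p = 0.000789 in limma)). Zfp36 and Zfp36l1, which speed the decay of AU-rich messages, fell by 1.56 and 1.36 with adjusted p of 0.00253 and 0.00106 in limma. For all of these ColXN617K had smaller falls, -0.76, -0.96 and -0.65, and the direct differences from C/X did not pass. Errfi1, an inhibitor of the EGF receptor, fell by 1.01, and Hsd17b7, an enzyme of cholesterol synthesis, by 1.70. Jund, another AP-1 subunit, was the immediate early gene that rose, at least 1.29-fold with a measured log2 fold change of 1.72 (SE 0.40, adjusted p = 0.00763 in limma), with C/X replicate 3 lowest in its group (8.81, 8.27 and 6.95).

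**Figure D4:**
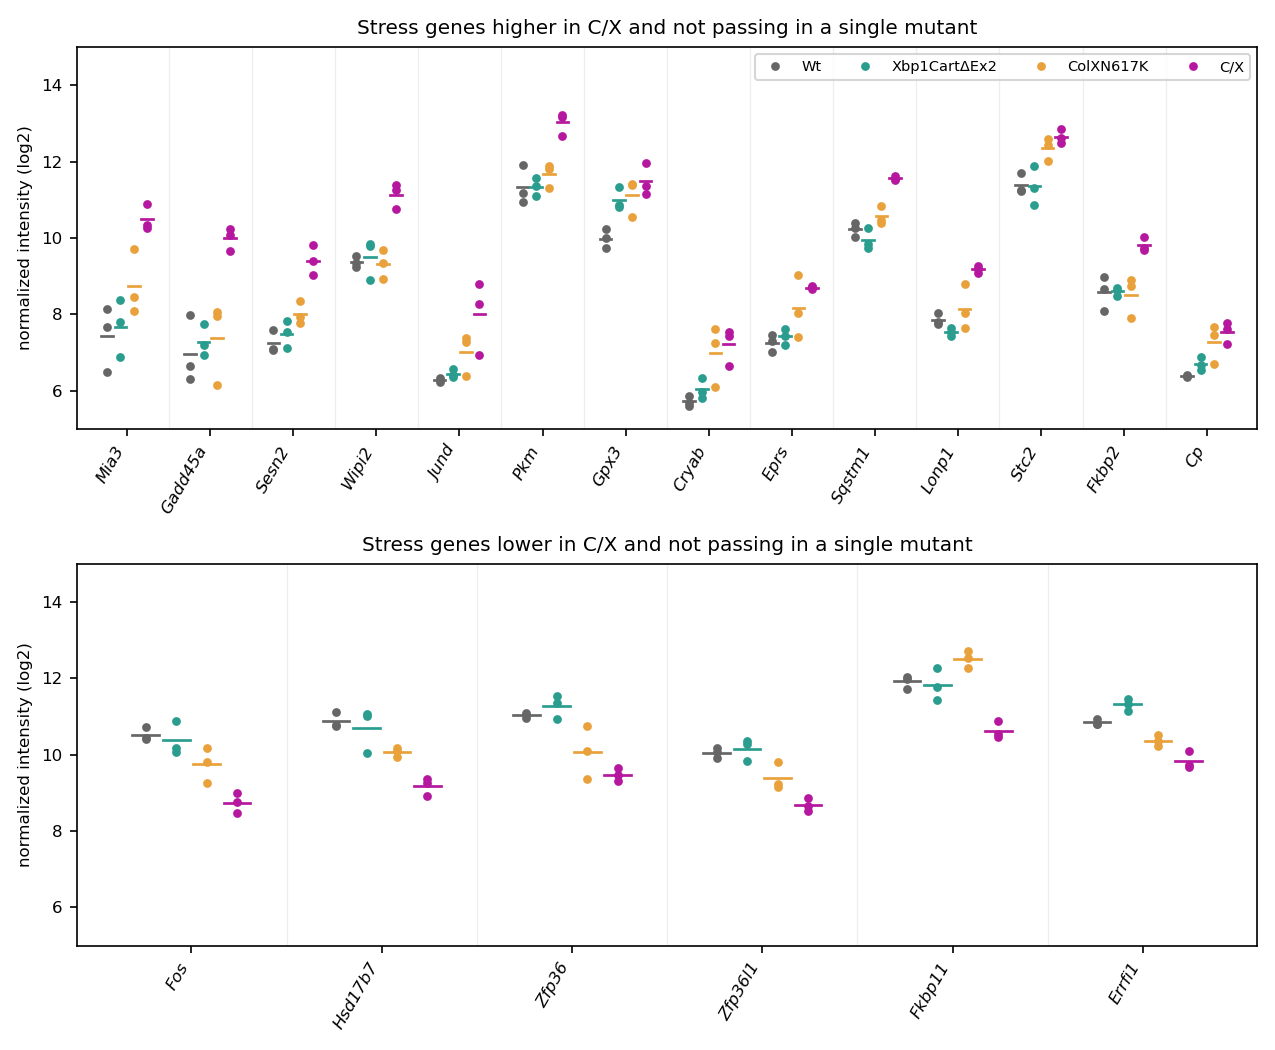
Normalized log2 intensity (y axis) of the 20 stress genes (x axis) that passed in C/X and with no probe in a single mutant, on all 12 arrays by genotype, with short lines for means. Gadd45a, Sesn2, Wipi2 and Pkm lie above and Fkbp11 below all other genotypes in C/X, and Cryab, Gpx3 and Cp overlap with ColXN617K.

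The largest C/X-only changes outside the stress lists were mixed in function. Niban1 (ILMN_2591031), a regulator of translation under stress, had 6.12, 6.28 and 6.17 in wildtype, 6.41, 6.56 and 6.22 in Xbp1CartΔEx2, 8.99, 9.01 and 6.38 in ColXN617K and 10.65, 10.80 and 9.87 in C/X, at least 6.94-fold higher (adjusted p = 0.000189, limma). ColXN617K replicate 3, the array with few detected probes, stayed at the wildtype level while the other 2 did not, and the gene was counted as C/X only. The same array set apart Synm (8.51, 8.77 and 6.43 in ColXN617K), an intermediate filament gene. At the second Nnmt probe ColXN617K replicates 2 and 3 were low and replicate 1 high (11.22, 6.95 and 6.29). C4b (ILMN_3049559), complement component 4, had 11.52, 10.74 and 11.90 in C/X against 8.37, 6.88 and 6.82 (log2 fold change 4.03 (SE 0.50, adjusted p = 0.000135 in limma)). C4a and C4b are near copies, so that their probes may read both. Fbln2 (ILMN_1245307), the matrix protein fibulin 2, had 7.03, 6.63 and 7.40 in wildtype, 6.88, 7.94 and 8.01 in Xbp1CartΔEx2, 8.10, 7.72 and 8.06 in ColXN617K and 10.40, 10.79 and 10.32 in C/X, at least 7.28-fold higher and clear of all other arrays. Among the falls, the small GTPase gene Rab8b had 7.84, 8.15 and 8.44 against 10.57, 10.09 and 11.04 (log2 fold change -2.42 (SE 0.32, adjusted p = 0.000241 in limma)), and Prkg1, a kinase activated by cyclic GMP, 8.62, 8.70 and 7.27 against 10.41, 11.02 and 10.23 (-2.36 (SE 0.40, adjusted p = 0.00112 in limma)).

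In a stricter view, 102 probes (0.848%) passed in C/X against each of the 3 other genotypes in 1 direction, 78 higher (0.649%) and 24 lower (0.2%). Of these, 82 were among the 588. The count of 102 was 5 with scaling by array medians and 31 without C/X replicate 1. Fn1, the matrix glycoprotein fibronectin, rose in C/X and had small falls in ColXN617K that did not pass. At ILMN_2595714 it had 7.42, 8.05 and 7.55 in wildtype, 7.92, 8.11 and 7.37 in Xbp1CartΔEx2, 6.89, 7.13 and 7.03 in ColXN617K and 10.72, 10.93 and 10.31 in C/X. The log2 fold change in C/X was 2.98 (SE 0.25, adjusted p = 9.18e-06 in limma) and that in ColXN617K -0.66 (adjusted p = 0.0695, limma). The interaction was 3.50 (SE 0.36, adjusted p = 0.000871 in limma). At this probe replicates 1 and 3 of wildtype and of ColXN617K were below background. A second Fn1 probe also passed in C/X, at 1.70, with -0.49 in ColXN617K (adjusted p = 0.151, limma). Map3k6 (ILMN_2947292), a kinase of the stress-activated cascade, had 7.54, 7.36 and 7.08, 8.02, 8.05 and 7.90, 7.72, 7.59 and 8.22 and 10.50, 10.31 and 10.42 in the same order, at least 6.8-fold higher in C/X, with an interaction of 1.90 (SE 0.29, adjusted p = 0.00411 in limma). Ugt1a10 (ILMN_1222543) was at least 8.64-fold higher, but the Ugt1a genes share exons and their probes may not part them. The cartilage transcription factor gene Sox6 (ILMN_1252898), which works with SOX9, had 8.79, 9.29 and 9.44 in C/X against 6.74, 6.83 and 6.67, at least 2.89-fold higher (adjusted p = 0.000482, limma). With the title number as a block its difference from ColXN617K did not pass (adjusted p = 0.0114, limma). Ccnd2 (ILMN_2700166), a cyclin of early cell cycle, had 11.31, 11.32 and 11.20 in C/X and 9.95, 9.47 and 9.79 in wildtype, with 1.54 (SE 0.23, adjusted p = 0.000479 in limma).

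On the lower side, Nrep (ILMN_2680054), a small regulator of TGF-beta signals, had 12.99, 13.08 and 12.91 in wildtype, 12.02, 12.43 and 12.42 in Xbp1CartΔEx2, 10.96, 11.08 and 10.24 in ColXN617K and 8.67, 9.08 and 9.24 in C/X (log2 fold change -3.999 (SE 0.25, adjusted p = 8.09e-07 in limma)). The amino acid carrier gene Slc38a4 had 7.44, 7.95 and 7.25 in C/X against 10.74, 10.99 and 10.56, and 9.90, 9.64 and 9.07 in ColXN617K. Dlx3, a homeobox gene of bone and skin, fell by 2.27 in C/X and did not pass in a single mutant. Lamc1 (ILMN_2774596), the gamma 1 chain of laminins, had 10.69, 10.73 and 10.77, 11.66, 12.31 and 12.01, 9.32, 9.50 and 9.75 and 8.40, 8.55 and 8.49 in wildtype, Xbp1CartΔEx2, ColXN617K and C/X. It was the case where the single mutants went in opposite directions, 1.27 and -1.20, and C/X went down, by -2.25 (SE 0.20, adjusted p = 1.34e-05 in limma), with an interaction of -2.31 (SE 0.29, adjusted p = 0.00153 in limma). Lamc1 is also made by vessels, and it stands in the list of basement membrane and bone genes, of which 7 of 15 fell and 1 rose. Over all genes 5.68% fell and 6.29% rose.

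**Figure D5:**
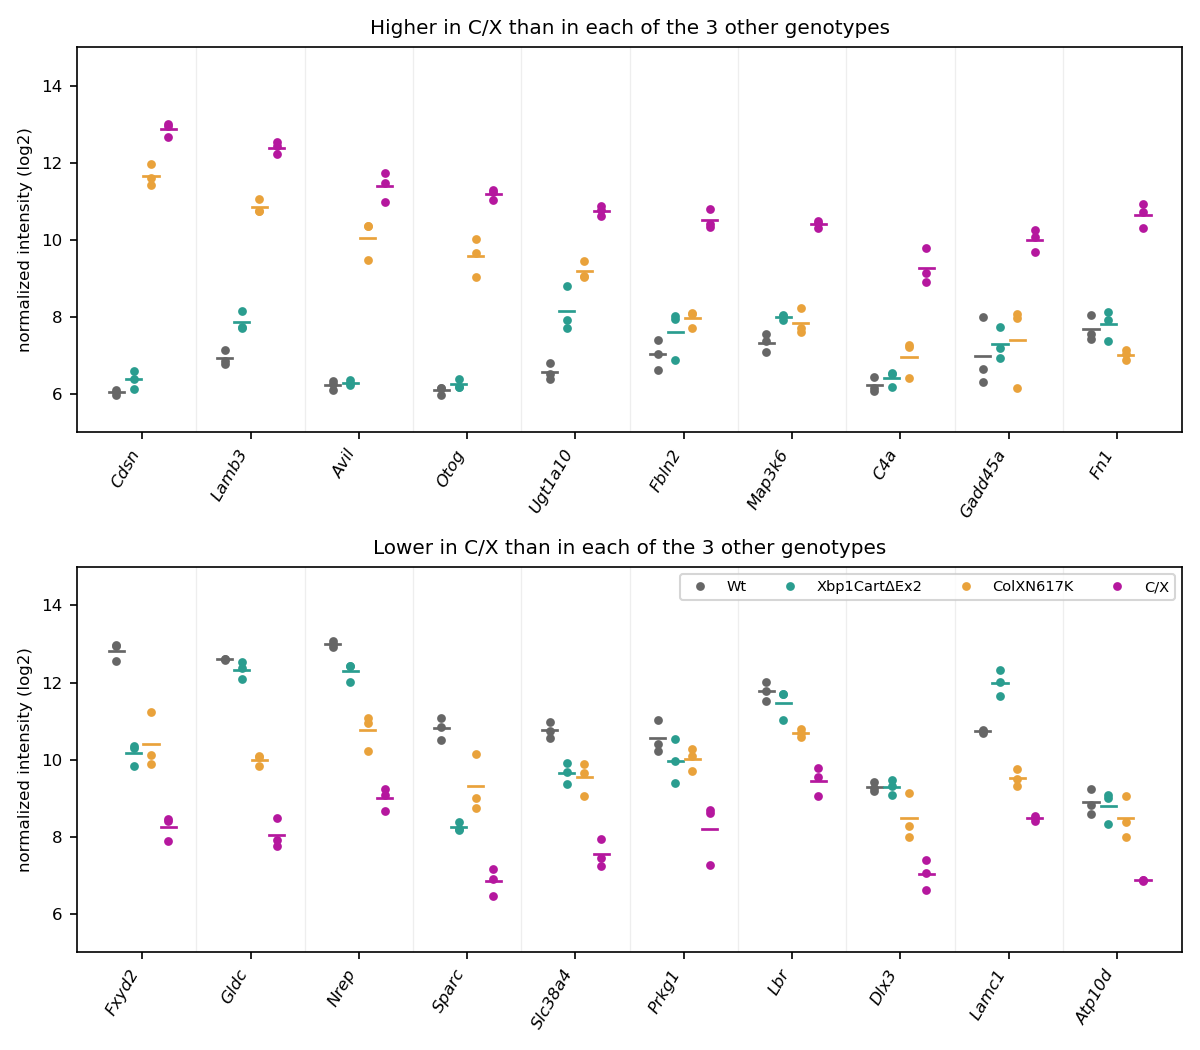
Normalized log2 intensity (y axis) on all 12 arrays, by genotype and with short lines for means, of the 10 genes with the largest rise and the 10 with the largest fall in C/X (x axis) among probes that passed against each of the 3 other genotypes. In Fn1 the C/X points lie above all others. The ColXN617K points lie below the wildtype points, but that difference did not pass.

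Most genes of the tissue itself missed the criteria in C/X. Of 20 genes of cartilage matrix 6 fell and 0 rose (median -0.76), and of 20 genes of hypertrophy and mineralization 5 fell and Sox6 rose (median -0.50), while 5.68% of all genes fell and 6.29% rose. Mgp, an inhibitor of mineralization, had 12.68, 13.22 and 12.97 in wildtype and 9.57, 9.38 and 10.59 in C/X (log2 fold change -3.11 (SE 0.28, adjusted p = 1.47e-05 in limma)). Matn1 (ILMN_1219993), a cartilage matrix linker, had 14.33, 14.27 and 14.35 and 13.05, 12.48 and 12.80, and with -1.54 (SE 0.22, adjusted p = 0.000338 in limma) it passed in C/X only. Its direct difference from ColXN617K was -0.65 (adjusted p = 0.0621, limma) and did not pass. By qPCR the study found Matn1 lower in ColXN617K versus wildtype as well. Acan, the main proteoglycan, had -0.21 at its brighter probe, with an adjusted p of 0.388 in limma, and Col2a1 had -0.43. A second Acan probe (ILMN_2639818) had -0.53 in C/X (adjusted p = 0.0708, limma) and did not pass. In ColXN617K that probe passed, at -1.57. The wildtype mean at the brighter Acan probe was 14.04, toward the highest tested value of 14.61, so a difference there may be understated. By qPCR the study found Acan (as Agc1) lower in ColXN617K versus wildtype and in C/X versus Xbp1CartΔEx2. Among genes of hypertrophy and mineralization Ihh, the hedgehog ligand of the growth plate, fell by 2.62, the collagenase gene Mmp13 by 1.88 and the bone sialoprotein gene Ibsp by 2.53. Ihh, Mmp13 and Ibsp passed in ColXN617K as well. Cdkn1c, a cell cycle inhibitor of hypertrophic cells, had 14.45, 14.37 and 14.61 in wildtype, 14.51, 14.61 and 14.49 in ColXN617K and 13.79, 13.31 and 13.52 in C/X. With -0.94 (SE 0.18, adjusted p = 0.00245 in limma) it missed the fold of 2, and it differed from ColXN617K by -0.998 (SE 0.18, adjusted p = 0.00377 in limma). Its wildtype and ColXN617K levels reached the highest value of all tested probes, 14.61, so differences at this probe may be understated. By qPCR the study found this gene lower in ColXN617K versus wildtype and in C/X versus Xbp1CartΔEx2. Bmp8a went another way, passing in ColXN617K at -1.63 while C/X had 0.52 and levels of 12.10, 12.05 and 11.46 against 11.34, 11.54 and 11.16 in wildtype, with 2.15 (SE 0.32, adjusted p = 0.00128 in limma) between the mutants.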

How the data were processed

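RNA of the microdissected hypertrophic zone was hybridised to Illumina MouseWG-6 arrays, 3 per genotype. The authors deposited non-normalized intensities with a detection score (1 minus the detection p) for each probe, and a table of normalized log2 values made with limma by background correction, quantile normalization and a filter on probes above background in 3 or more samples. Here the deposited intensities were processed again with neqc (limma 3.58.1 in R 4.3.3, offset 16). The log2 values differed from the authors' by at most 0.0339. Probes with a score above 0.95 on 3 or more of 12 arrays were fitted with a mean for each genotype, contrasts and eBayes, with Benjamini-Hochberg adjustment in each contrast. The criteria were a fold of 2 or more with an adjusted p up to 0.01. Genes were named from the platform annotation.

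Named genes were the 12 largest rises and 12 largest falls, the stress genes and the largest other changes in C/X only, the largest changes against all 3 other genotypes, and members of the gene lists. Members and lists were chosen with earlier results of these data known. On simulated data for C/X versus wildtype (50 probes per fold), 0, 6, 74 and 86% of probes changed 1.41-, 2-, 4- and 8-fold passed, and 1 of 11823 unchanged probes did. The simulation changed few probes, in C/X alone, and drew independent noise with no array effects. Its rates may therefore not hold for the real arrays. The title numbers were checked as pairs by the correlation of deviations from group means. Only for C/X with ColXN617K was every pair over 0.1 (r of 0.37 to 0.66, with replicate 3 of both holding few detected probes), and no label states a shared litter or day. Each array is 1 mouse, and 3 per genotype limit the precision.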

Additional observations from a re-analysis of the deposited data

Results flagged for a closer look

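These probes named in the text had a double mutant change that differed from the sum of both single changes, by the interaction of the collagen X mutation and XBP1 loss. Over all tested probes 205 passed this test (1.71%), 115 higher and 90 lower. The test uses the arrays that also chose the named probes, and its count moved with single arrays, as given under the dependence on processing.

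Fn1 (ILMN_2595714) had 2.98 in C/X, -0.66 in ColXN617K and 0.13 in Xbp1CartΔEx2, each versus wildtype, and an interaction of 3.50 (SE 0.36, adjusted p = 0.000871 in limma). Map3k6 (ILMN_2947292) had 3.08 in C/X, 0.52 in ColXN617K and 0.66 in Xbp1CartΔEx2, each versus wildtype, and an interaction of 1.90 (SE 0.29, adjusted p = 0.00411 in limma). Trib3 (ILMN_1252762) had 1.75 in C/X, 0.05 in ColXN617K and -0.49 in Xbp1CartΔEx2, each versus wildtype, and an interaction of 2.19 (SE 0.32, adjusted p = 0.00331 in limma). For these genes the double mutant was above the sum.

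Lamc1 (ILMN_2774596) had -2.25 in C/X, -1.20 in ColXN617K and 1.27 in Xbp1CartΔEx2, each versus wildtype, and an interaction of -2.31 (SE 0.29, adjusted p = 0.00153 in limma). Gldc (ILMN_2873750) had -4.55 in C/X, -2.61 in ColXN617K and -0.27 in Xbp1CartΔEx2, each versus wildtype, and an interaction of -1.67 (SE 0.31, adjusted p = 0.00935 in limma). Aldh1l2 (ILMN_2898319) had 3.81 in C/X, 4.63 in ColXN617K and 2.54 in Xbp1CartΔEx2, each versus wildtype, and an interaction of -3.36 (SE 0.62, adjusted p = 0.00935 in limma). Aldh1l2, a mitochondrial enzyme of folate metabolism, has another probe among the C/X-only stress genes, with 3.41 in C/X. Npc1 (ILMN_2427454) had 1.91 in C/X, 3.04 in ColXN617K and 1.07 in Xbp1CartΔEx2, each versus wildtype, and an interaction of -2.20 (SE 0.27, adjusted p = 0.00143 in limma). Mcm6 (ILMN_1217331) had 1.79 in C/X, 1.56 in ColXN617K and 2.27 in Xbp1CartΔEx2, each versus wildtype, and an interaction of -2.04 (SE 0.30, adjusted p = 0.00315 in limma). Mcm6 is a subunit of the replication helicase. For these 5 genes the double mutant was below the sum.

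Hbb-b2 (ILMN_2729513) had -4.09 in C/X, -3.59 in ColXN617K and -4.07 in Xbp1CartΔEx2, each versus wildtype, and an interaction of 3.58 (SE 0.42, adjusted p = 0.00142 in limma). This globin probe was not above background on any array of the 3 mutants, so these differences and the interaction are not measured sizes, and in C/X it was at least 5.62-fold lower. The wildtype arrays were not above background for the Aldh1l2, Map3k6, Mcm6 and Trib3 probes, so their values above rest on levels below background there.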

How the results depend on the processing

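The main counts were 1410 probes in C/X versus wildtype, 588 of them in neither single mutant, 102 against each of the 3 other genotypes, and 205 for the interaction. In that order, scaling by array medians gave 305, 107, 5 and 1, and the replicate block by the description label gave 666, 256, 47 and 107. Without background correction the first 3 were 719, 291 and 45. Array weights gave 2370 for C/X versus wildtype, 230 against each other genotype and 2058 for the interaction. The mean of the probes of a gene gave 364, 57 and 127 for the last 3. Leaving out both arrays with few detected probes (C/X 3 and ColXN617K 3, chosen after seeing the data) gave 2583 for C/X versus wildtype, 172 against each other genotype and 914 for the interaction. No filter on detection gave 63 against each other genotype and 123 for the interaction, an adjusted p of 0.05 gave 207 and 879, and fits of 2 genotypes each gave 14 against each other genotype. Asking for an adjusted p over 0.05 in both single mutants left 310 of the 588. The cause of these shifts was not tested.

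Leaving out 1 array at a time, C/X versus wildtype ranged from 881 (without C/X 1) to 1815 (without ColXN617K 3), and the C/X-only count from 321 (without C/X 1; 383 without C/X 2) to 672. The count against each other genotype ranged from 31 (without C/X 1) to 170 (without ColXN617K 3), with 66 without wildtype 3, 60, 61, 58 and 67 without ColXN617K 1, ColXN617K 2, C/X 2 and C/X 3. The interaction ranged from 49 (without Xbp1CartΔEx2 3) to 796 (without ColXN617K 3), and leaving out any of the 12 arrays moved it by over 1.5 times. Of the 28 stress genes with a C/X-only probe, 13 probes stayed so in all 12 such fits, and 4 did with scaling by array medians. Srxn1 stayed in 1 of the 12 fits, Eprs in 2 and Cryab in 3.

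The share of higher calls was 55.6% in C/X versus wildtype, 76.4% with array medians and 42.4% with medians of the tested probes (1162 calls, chosen after seeing the data). It was 63.8% and 82.2% among C/X-only probes. Array medians moved the median of all probes by 0.38 in C/X and 0.77 in ColXN617K, and medians of the tested probes by -0.28 and -0.27. With the latter the medians of the ER chaperone, ER translocation, NRF2 and acute phase lists turned negative, and with array medians those of the autophagy, sterol, p53 and liver lists changed sign.

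Changes of sign were seen in 10 probes that the naming rule or the lists gave. Ranges here are over fits that leave out 1 array. Npc1 (ILMN_1250418) had 0.41 by the mean of its probes. Vcp (ILMN_1255736) had -0.16 with cyclic loess and -0.12 with array medians. Col6a1 (ILMN_1259388) had -0.094 with cyclic loess, -0.029 with the description block, -0.010 without both arrays with few detected probes and a range of -0.034 to 0.14 (sign changed without wildtype 1, wildtype 3, C/X 3). Stat3 (ILMN_2589790) had -0.24 with the description block. Lamp1 (ILMN_1237208) had 0.018 with array medians and a range of -0.084 to 0.0090 (sign changed without wildtype 1). Fdps (ILMN_1225730) had 0.57 by the mean of its probes and a range of -0.19 to 0.069 (sign changed without C/X 2). Snorc (ILMN_2598181) had -0.24 with cyclic loess, -0.23 with array medians and a range of -0.035 to 0.052 (sign changed without wildtype 1, wildtype 2, Xbp1CartΔEx2 1, Xbp1CartΔEx2 2, Xbp1CartΔEx2 3, ColXN617K 2, C/X 2). Xbp1 (ILMN_2431237) had a range of -0.16 to 0.33 (sign changed without wildtype 1, C/X 1, C/X 2). Pth1r (ILMN_2850309) had 0.49 with the description block. Sparc (ILMN_3136561) had -0.063 with cyclic loess, -1.35 by the mean of its probes and a range of -0.044 to 0.13 (sign changed without wildtype 1).

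The replicate block gave 1513, 630, 113 and 179. Over all genotypes 7 of 18 same-numbered pairs had a correlation over 0.1 (range -0.33 to 0.66), and 7 of 12 arrays correlated best with their own number. Same-numbered arrays of C/X and wildtype had 0.08, 0.33 and 0.30, so the numbers do not settle whether these are paired. All 3 pairs of C/X with ColXN617K were over 0.1. In a fit of only those 6 arrays, chosen after seeing the data, C/X versus ColXN617K had 419 calls with the replicate block and 53 without it. Among named genes the block over 12 arrays changed the call against ColXN617K for Aldh1a3, Pkm and Sox6, as given above, and for Niban1, Rab8b and Rtraf (gained) and Prkg1 and Lbr (lost). A block by slide was not run, since the labels and headers used here give no slide.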

Other observations

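The gene families and single genes below were chosen after their values were seen. Of 33 measured histone genes 14 fell and 0 rose in C/X (over all genes 5.68% fell), with a median log2 fold change of -0.87 in C/X, -0.93 in ColXN617K and -0.59 in Xbp1CartΔEx2. Histone genes are near copies, and their probes may share signal. Of 35 measured Eif genes, which encode translation initiation factors, 2 rose and 0 fell by the brightest probe, while 6.29% of all genes rose, and 5 had a C/X-only probe, as did 5.84% of all genes. These were Eif1ad (2.86), Eif2b1 (2.06), Eif2b5 (1.87), Eif5a (2.02) and Eif5 (1.74), and Eif5a had -1.21 in ColXN617K. The wildtype arrays were not above background for these Eif1ad and Eif2b1 probes, nor the ColXN617K arrays for this Eif5a probe. At the brightest probe of each gene none passed in C/X, with 1.00, 0.97, 0.40, 0.60 and 0.26 in the same order. There Eif5a had 0.24 in ColXN617K, and Eif1ad passed in ColXN617K, at 1.59.

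Of 14 genes of complement 4, class I and related antigen presentation 5 rose and 1 fell by the brightest probe (over all genes 6.29% rose and 5.68% fell), with a median of 0.50. C4a had 3.05, 1.68 and -0.34 at its 3 probes in C/X, and C4b 4.03. H2-D1, a class I heavy chain, had 2.52 and 2.15, H2-T23 1.44 (and 1.43 in ColXN617K, where it also passed) and Tapbpl 1.41, while B2m, the light chain, had -1.63. H2-T10 (-0.54), H2-T3 (-0.07) and Tap1 (-0.47) did not pass. The wildtype arrays were not above background for the C4a probe with 3.05, the H2-D1 probe with 2.15, H2-T23 and Tapbpl. C4a and C4b are near copies, as are class I genes.

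Inhba, the beta A subunit of activin, was 1 of 3 probes that passed in opposite directions in C/X and ColXN617K, with levels of 9.77, 9.98 and 9.91 in wildtype, 11.46, 10.86 and 11.17 in Xbp1CartΔEx2, 8.76, 8.09 and 7.37 in ColXN617K and 11.58, 11.90 and 11.32 in C/X. Its log2 fold change was 1.71 (SE 0.31, adjusted p = 0.00185 in limma) in C/X and -1.82 (SE 0.31, adjusted p = 0.00102 in limma) in ColXN617K.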
